A study of Mus musculus with 2 samples.

Results

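Long intergenic transcripts far from annotated genes were 2912 genomic intervals named on the array by their own coordinates, each given as a chromosome, a start, an end and a strand (F, forward, or R, reverse) on mouse assembly mm9. An interval was taken where a probe lay more than 10 kb, midpoint to midpoint, from every probe for a curated RefSeq mRNA (accession prefix NM_), and where such a probe stood well above background on at least 1 of 2 arrays. Of 4607 intergenic intervals on the array, 3706 had a probe this far out, 2912 of these (78.6%) were detected and 794 were not, and each detected interval was represented by its brightest such probe. The rule used position and detection, not the difference between the groups. RNA was compared between EpiSC, epiblast stem cells obtained by giving E14Tg2A cells FGF2 (12 ng/mL) and Activin A (20 ng/mL) in a chemically defined medium with N2 and B27, and ELA-EpiSC, for which the same pair of factors was given to cells of Epiblast-Like Aggregates (ELA), the floating clusters that E14Tg2A cells form once serum and LIF are withdrawn. E14Tg2A is a mouse embryonic stem cell line of strain 129/Ola, and both groups started from cultures in serum with LIF (1000 U/mL). Each group was 1 array of RNA pooled from 3 sets of experiments, so no difference has a replicate and no test between the groups could be made. The titles and descriptions of the samples name these groups, but another field of the labels calls the EpiSC sample an Argonaute immunoprecipitate and both samples cells before differentiation, and the groups here follow the titles. All values are log2 signal, and a difference is log2 ELA-EpiSC minus EpiSC.

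Long intergenic non-coding RNAs are transcripts that lie between protein-coding genes, are usually spliced and polyadenylated like mRNAs, and code for no protein. Some act at the locus they are made from, on the chromatin or transcription of neighbouring genes, and others serve as hosts for small RNAs such as microRNAs and snoRNAs. In pluripotent cells they include the transcripts of imprinted domains, where RNA is made from the allele of only one parent. Intervals on this array can overlap, so 1 transcript can be covered by several of them.

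The 60-base probes below stand for the intervals whose values the following paragraphs turn on, written 5′ to 3′ as the array files give them. The first set holds the 3 reverse intervals between Bcl2l11 and Anapc1, whose signal was higher in ELA-EpiSC, and the interval 137 kb from Pou3f1.
chr2:128137419-128141735_R: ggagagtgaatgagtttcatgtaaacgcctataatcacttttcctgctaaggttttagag
chr2:128142035-128142481_R: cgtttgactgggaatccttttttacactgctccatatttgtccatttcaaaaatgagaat
chr2:128211990-128215223_R: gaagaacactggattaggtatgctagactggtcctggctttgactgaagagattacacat
chr4:124127144-124334840_R: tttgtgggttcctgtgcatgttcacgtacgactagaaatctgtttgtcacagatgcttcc

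The second set holds intervals with higher signal in EpiSC, in the Speer4 region and beside Cbln1 and Irx5. Capitals mark bases that the probes of 2 overlapping intervals have in common, 15 bases for the pair beside Cbln1 and 49 bases for the pair beside Irx5, so the intervals of a pair are not independent measurements.
chr5:15146475-15170100_F: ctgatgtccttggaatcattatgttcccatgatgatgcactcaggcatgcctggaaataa
chr5:14943275-14944205_F: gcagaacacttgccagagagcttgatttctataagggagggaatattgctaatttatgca
chr8:89996710-90049453_F: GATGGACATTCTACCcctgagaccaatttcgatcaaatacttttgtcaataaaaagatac
chr8:90048940-90049461_F: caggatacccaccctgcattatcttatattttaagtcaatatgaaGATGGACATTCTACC
chr8:94841965-94881130_R: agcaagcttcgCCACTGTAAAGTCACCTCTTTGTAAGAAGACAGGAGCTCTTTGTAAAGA
chr8:94849929-94870274_R: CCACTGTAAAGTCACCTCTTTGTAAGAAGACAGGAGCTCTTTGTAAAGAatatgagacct

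The third set holds probes that carry part of a named transcript's probe. Capitals mark the longest run of bases in common with a probe for Rps16 (45 and 31 bases), the ribosomal RNA precursor Rn45s (57 bases) or Snhg18 (57 bases), in this order. RNA of the named gene could therefore bind these probes, and its part in their signal was not tested.
chr11:22681800-22707775_R: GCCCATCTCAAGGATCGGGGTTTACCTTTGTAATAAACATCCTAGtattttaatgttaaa
chr2:167085700-167117795_R: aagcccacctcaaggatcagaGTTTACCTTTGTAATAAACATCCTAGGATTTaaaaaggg
chr17:39982023-39983277_F: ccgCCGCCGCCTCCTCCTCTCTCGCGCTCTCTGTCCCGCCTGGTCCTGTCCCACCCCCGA
chr15:32167516-32174417_R: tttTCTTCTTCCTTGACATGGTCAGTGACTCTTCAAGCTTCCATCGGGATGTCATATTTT

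Of the 2912 intervals, 2642 were detected on both arrays, 160 on the EpiSC array only and 110 on the ELA-EpiSC array only. Beside this, 23931 of all 25851 detected genes and intervals were detected on both arrays. They were 1448 forward and 1464 reverse intervals with a median length of 13.5 kb (quartiles 3.18 and 29.97 kb, range 0.062 to 538 kb). The median distance to the nearest mRNA probe was 45.7 kb, and the farthest interval lay 2097 kb away. Many overlapped: merging overlapping intervals of 1 strand left 2302 loci, and merging both strands left 1585. Signal was low, with a median mean log2 of 7.08 and a range of 6.04 to 17.83. Only 1163 intervals reached a mean log2 of 7.5, the minimum for counting differences, and all 1163 were detected on both arrays. At the 10 kb edge, the intervals just inside were chr2:27628702-27628903_R (10.0 kb from Rxra, 6.23 on both arrays), chr14:65874977-65880202_F and chr3:90425270-90435820_R, and those just outside included chr3:38320928-38341869_F (6.97 in EpiSC and 6.92 in ELA-EpiSC).

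Both arrays carried the epiblast markers, all 10 of 10 detected, among them Pou5f1 (14.27 in EpiSC and 14.46 in ELA-EpiSC), and 2 were past 1, both higher in ELA-EpiSC. Lists for other cells differed between the groups, and a gene was counted as past 1 only with a mean log2 of at least 7.5. Of 8 visceral endoderm genes, all detected, 4 were past 1 and higher in EpiSC (summed signal, log2, 15.03 against 13.68), and Ttr and Apoa1 were not well above background in ELA-EpiSC. Of 5 mesenchyme genes 2 were past 1, both higher in ELA-EpiSC (14.17 against 16.17). Among 5 neural genes 4 were detected and 1 was past 1, higher in ELA-EpiSC (12.58 against 14.48). Of 5 trophoblast genes 1 was past 1 in each direction (16.97 against 16.93). Among 8 ground state genes 4 were past 1, all higher in EpiSC (13.17 against 12.01). Their part in the differences of the intervals was not tested, and in bulk RNA fewer cells of a type and less RNA per cell cannot be told apart. Of 30 named long non-coding RNAs set beside the intervals, 24 were on the array, 19 were detected and 13 reached a mean log2 of 7.5. Past 1 were 2 in favour of ELA-EpiSC and 3 in favour of EpiSC, among them H19 (13.05 and 8.18). Over all genes and intervals of this signal 9.0% were past 1.

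Most far intervals gave nearly the same signal in both kinds of epiblast stem cell. Of the 1163, 974 (83.7%) differed by less than 0.5, and 333 (28.6%) by less than 0.10, the spread of a difference between repeated spots of 1 probe, which covers spot error only. No like shares over all genes are given. The median size of a difference was 0.20 for the 1163 and 0.28 over all 16649 genes and intervals of this signal. Most of all genes and intervals thus also differed by less than 0.5. The median difference was −0.02 over the 2642 intervals detected on both arrays, beside −0.003 over all 23931 genes and intervals detected on both. A difference of at least 1 was reached by 52 intervals (4.47%), beside 9.0% of all 16649 genes and intervals of this signal. Of the 52, 18 (1.55%) were higher in ELA-EpiSC, beside 4.54% of all, and 34 (2.92%) were higher in EpiSC, beside 4.46% of all. Counting overlapping intervals of 1 strand once, by the brightest, left 14 and 27. A difference of at least 2.5 was reached by 3 intervals in favour of ELA-EpiSC and 5 in favour of EpiSC. The scatter of difference against signal shows both directions over a wide range of signal.

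**Figure D1:**
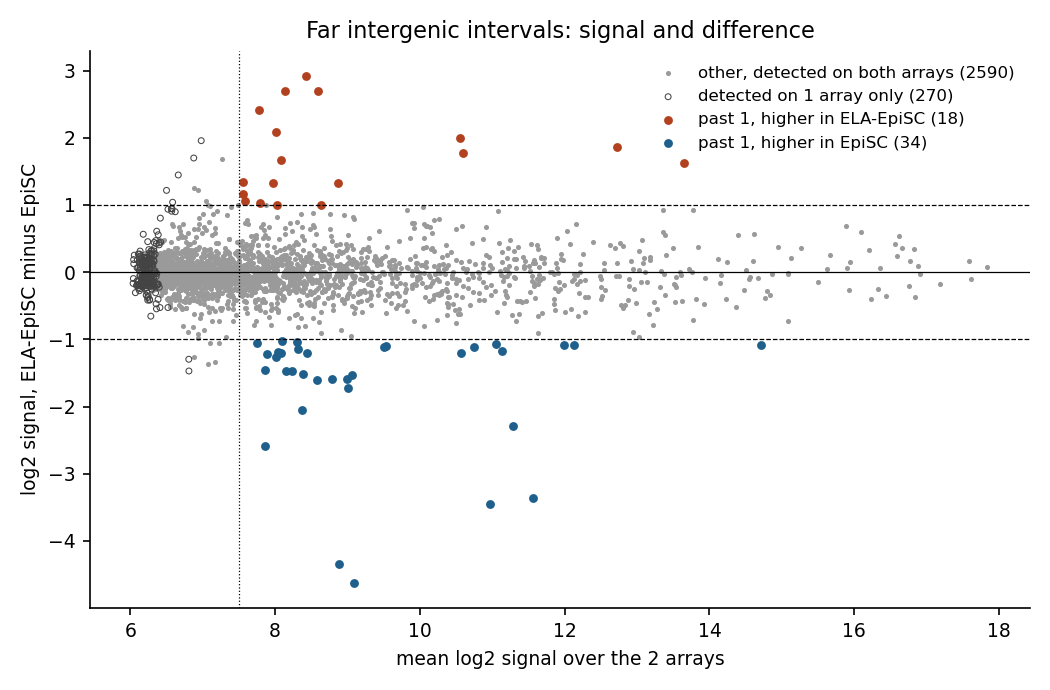
Log2 difference (ELA-EpiSC minus EpiSC) against mean log2 signal over both arrays for the 2912 far intervals, 1 point each, with 1 array per group. Dashed lines mark differences of 1 in each direction and the dotted line a mean log2 of 7.5, and most of the points lie between the dashed lines.

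The split between the directions depended on how the arrays were set equal. After scaling each array by its median, 33 intervals favoured ELA-EpiSC and 22 favoured EpiSC, against 18 and 34 on the quantile scale, where 34.6% of the calls favoured ELA-EpiSC. With the spike-in RNAs set equal these numbers were 100 and 11 (90.1%), since the spike-ins read on average 0.53 lower in ELA-EpiSC and this scale raised the median of all genes to 0.53. The same scaling moved all genes alike, with 89.0% of their calls then in favour of ELA-EpiSC, beside 68.3% with scaling by the median and 50.5% on the quantile scale. None of the 52 intervals past 1 changed sign under any of the 11 other ways of normalizing. They were picked for a difference of at least 1, so even the spike-in shift of 0.53 could not turn a sign, and this is no support for their direction.

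At like signal the share past 1 was lower for far intervals than for mRNA genes. Between 7.5 and 9, 5.15% of 641 far intervals and 17.6% of 2250 mRNA genes differed by at least 1. Between 9 and 11 the shares were 3.46% of 289 and 12.3% of 3506, and above 11 they were 3.86% of 233 and 7.31% of 6159. The median size of a difference was 0.20 for far intervals and 0.30 for mRNA genes. Intergenic intervals nearer than 10 kb to an mRNA probe gave 7 and 11 past 1 among 353 (5.10%), beside 4.47% of the far ones. Counts past 1 by distance were 3.70% of 270 intervals at 10 to 20 kb, 3.71% of 377 at 20 to 50 kb, 4.85% of 268 at 50 to 100 kb, 6.38% of 235 at 100 to 500 kb and none of 13 beyond 500 kb. These are descriptions of 2 arrays, and their differences were not tested.

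The highest differences in favour of ELA-EpiSC came from 1 stretch of chromosome 2 between Bcl2l11, which encodes the pro-apoptotic protein Bim, and Anapc1, a subunit of the anaphase-promoting complex. Interval chr2:128137419-128141735_R read 6.97 in EpiSC against 9.89 in ELA-EpiSC and thus differed by 2.92 (7.56-fold), with 3 probes between 2.52 and 2.92. Its neighbour chr2:128142035-128142481_R read 6.78 and 9.49, a difference of 2.70. It holds a probe for Gm14005, named Morrbid in RefSeq, a long non-coding RNA known to act on Bcl2l11, and that probe read 6.84 and 8.87, a difference of 2.03. The interval chr2:128211990-128215223_R, 227 kb from the nearest Anapc1 probe, read 7.24 and 9.94, again a difference of 2.70, with 3 probes between 1.62 and 2.70. Bcl2l11 itself, 159 kb from the first interval, read 8.56 and 9.07, a difference of 0.50, and Anapc1 0.17. All 3 were dim in EpiSC and well above that in ELA-EpiSC, and 3 further intervals of the stretch differed by 0.04, 0.43 and 0.97.

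A second group of reverse intervals lay over a snoRNA host gene. Interval chr2:158169020-158191295_R read 12.84 in EpiSC against 14.46 in ELA-EpiSC and thus differed by 1.62, and holds 9430008C03Rik, named Snhg17 in RefSeq, whose own probe read 9.90 and 11.57, a difference of 1.67. The overlapping chr2:158179435-158187316_R differed by 0.88 and the forward strand of the same interval by 0.03. The 10 probes of the first interval ranged from −0.16 to 1.62, so its value describes the brightest probe and not its whole length. Snhg11, the nearest mRNA-class gene on the array, differed by −0.54.

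A further 5 intervals were among the 10 with the largest differences in favour of ELA-EpiSC. Beside Lin54, a DNA-binding subunit of a cell-cycle gene repressor, chr5:100845342-100869667_R read 9.56 and 11.56 (2.00) and the overlapping chr5:100849748-100858532_R 9.71 and 11.48 (1.77), while Lin54 differed by 0.46. The 8 probes of the first ranged from −0.18 to 2.00. Interval chr6:34548561-34612216_F read 6.57 and 8.99, a difference of 2.41 from its only detected probe. Its nearest mRNA probe, 93.8 kb away, belongs to Bpgm, an enzyme of red-cell glycolysis, which differed by −0.85. Interval chr1:45066850-45095650_R read 6.97 and 9.05, a difference of 2.09, with 4 probes between −0.09 and 2.09, whereas Gulp1, an adaptor for engulfment of dying cells, differed by −1.42 at a distance of 239 kb. These 2 intervals and the genes of their nearest mRNA probes went in opposite directions, but gene bodies that may lie closer were not looked for. Interval chr4:146507925-146532650_R read 11.80 and 13.66, a difference of 1.86, its 5 probes lay between 1.59 and 1.86, and its nearest gene Gm13152 differed by −0.69.

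Interval chr4:124127144-124334840_R shared the direction of its neighbour Pou3f1, a POU-domain factor of the primed epiblast and of neural progenitors. It read 7.24 in EpiSC against 8.92 in ELA-EpiSC and thus differed by 1.67, with 5 probes between 1.31 and 1.67. Pou3f1, 137 kb away, read 12.56 and 14.02, a difference of 1.46. Of the named transcripts inside the interval on its strand, 1700057H15Rik read 6.89 and 6.78 (−0.12) and another, without a gene symbol, 6.71 and 6.93 (0.23), so neither followed it. A forward interval inside the same stretch, chr4:124202159-124202824_F, was detected in EpiSC only, near the detection limit, at 6.23.

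**Figure D2:**
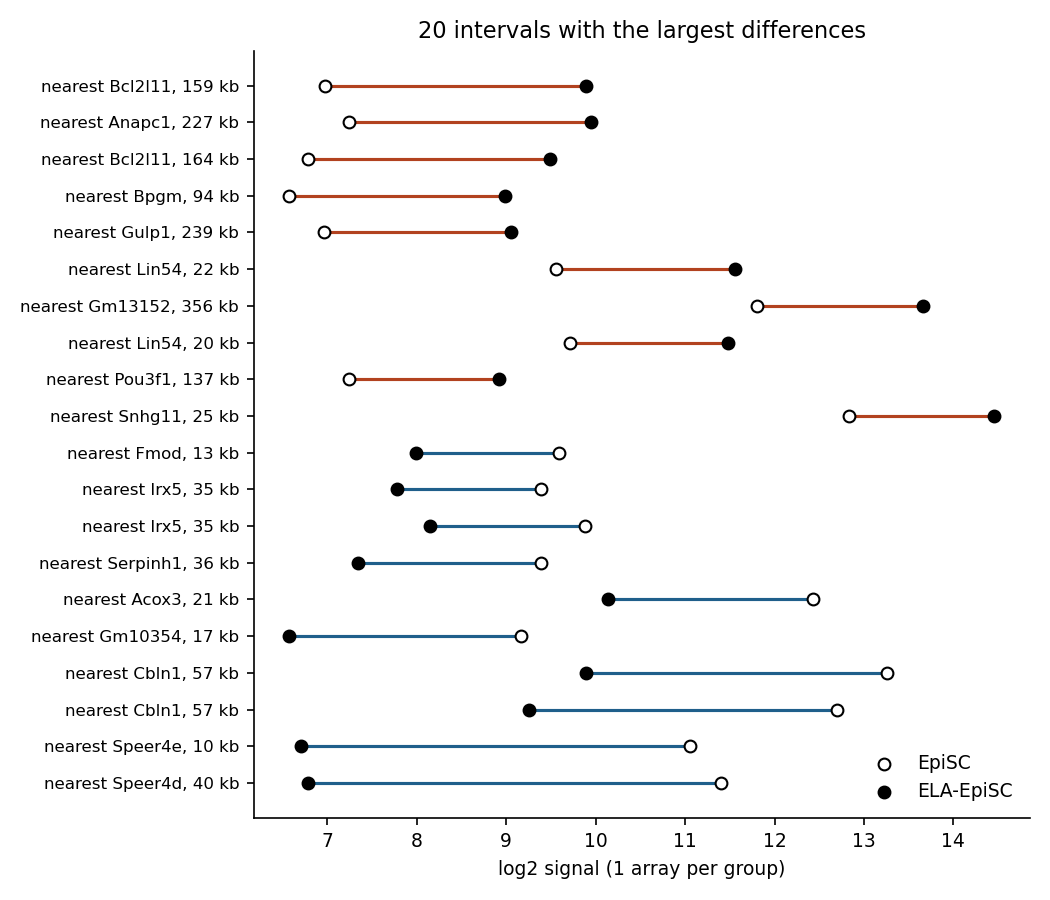
Log2 signal on the EpiSC array (open circles) and the ELA-EpiSC array (filled circles) for the 20 far intervals with the largest differences, labelled by the nearest mRNA gene and its distance in kb. Lines join the 2 arrays, red where ELA-EpiSC was higher and blue where EpiSC was higher, and the longest line is the interval nearest Speer4d, from 11.40 to 6.78.

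The largest differences of all were in favour of EpiSC and came from the Speer4 region of chromosome 5, home of a rodent family of spermatogenesis-associated genes in many copies. Interval chr5:15146475-15170100_F read 11.40 in EpiSC against 6.78 in ELA-EpiSC and thus differed by −4.62 (24.6-fold), with 4 probes between −4.62 and −2.78, and chr5:14943275-14944205_F read 11.05 and 6.71, a difference of −4.35 (20.3-fold). The longer chr5:14923900-15062725_F read 9.16 and 6.57, a difference of −2.59 with 5 probes between −2.59 and −1.28, and chr5:14996031-15035334_F was detected in EpiSC only, at 7.55, at least 2.71-fold above ELA-EpiSC. All 7 intervals of the stretch read lower in ELA-EpiSC, from −0.17 to −4.62, beside 53.9% of all far intervals detected on both arrays. Of the 7, chr5:14996031-15035334_F and chr5:15176325-15223375_R were detected in EpiSC only. They passed the filter only through the array where they were bright, so no direction is read from them. The difference of chr5:15176325-15223375_R, −0.17, turned to 0.36 under another scaling. The transcribed pseudogene Speer8-ps1, whose probe lies in the longest of them on the same strand, read 7.81 and 6.38 (−1.43), and Speer7-ps1, a copy whose probe lies opposite chr5:15176325-15223375_R, read 9.26 in EpiSC and was not well above background in ELA-EpiSC. The nearest mRNA probes were close to the detection limit, Gm10354 with a difference of −0.54 and Speer4d not well above background in ELA-EpiSC. Copies of this family are similar in sequence, so the locus a signal came from is uncertain.

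A pair of forward intervals ended at nearly the same place, 56.6 kb from Cbln1, which encodes a secreted organizer of synapses. Interval chr8:89996710-90049453_F read 13.25 in EpiSC against 9.89 in ELA-EpiSC and thus differed by −3.36 (10.3-fold), with 3 probes between −3.47 and −1.78, and chr8:90048940-90049461_F read 12.70 and 9.25, a difference of −3.45 (10.9-fold). The first holds Gm2694, a named non-coding transcript, whose probe read 11.58 and 8.56 (−3.02), and Cbln1 itself read 11.51 and 8.37 (−3.14). The reverse strand of the stretch, chr8:90000619-90061169_R, read 7.85 and 7.72, a difference of −0.14. The forward intervals and Cbln1 were both far lower in ELA-EpiSC, and one more forward interval, chr8:90000619-90061169_F, read 7.03 and 6.50 (−0.53).

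On the same chromosome, between Irx3 and Irx5, which encode homeobox factors of early patterning, chr8:94841965-94881130_R read 9.88 and 8.14 (−1.73), with 5 probes between −1.73 and −0.35, and chr8:94849929-94870274_R read 9.39 and 7.78 (−1.61). Both hold Crnde, a long non-coding RNA transcribed away from Irx5, whose brighter probe read 9.41 and 7.71 (−1.69). Irx5, 34.7 kb away, read 8.78 and 7.45 (−1.33). The forward strand of the same interval read 6.44 and 6.35 (−0.08).

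The nearest genes of the remaining large differences in favour of EpiSC differed by less than 0.5. Interval chr5:35975265-35982561_F read 12.43 and 10.14, a difference of −2.29 with 4 probes between −2.29 and −1.94, and Acox3, a peroxisomal oxidase gene 20.7 kb away, differed by −0.02. Interval chr7:106529142-106529752_R read 9.39 and 7.34 (−2.05), with 3 probes that ranged from −2.05 to −0.28, beside 0.47 for Serpinh1, the chaperone of collagen. Interval chr1:135956616-135957485_R read 9.59 and 7.995 (−1.59), with 3 probes from −1.87 to −1.59, beside −0.06 for Fmod, a collagen-binding proteoglycan detected near background. Among the other intervals higher in EpiSC, chosen here after their values were seen, chr15:32167516-32174427_R and chr15:32167516-32174417_R differed by −1.59 and −1.53 and hold Snhg18, a snoRNA host gene, which read 9.82 and 8.17 (−1.65). The second of these is the only one of the 52 intervals past 1 whose probe has 30 bases in common with a named transcript's probe.

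Intervals detected on 1 array only give a bound, the bright value against the higher of the dim value and the lowest detected signal of the dim array (5.89 for EpiSC, 6.11 for ELA-EpiSC). Of 270 such intervals, 7 reached a bound of 1, 5 in ELA-EpiSC and 2 in EpiSC. They passed the filter only through the array where they were bright, and no like count over all genes is given. No direction is therefore read from the 5 and 2. Found in ELA-EpiSC only, chr9:82524061-82526378_R read 7.96 against 6.002, at least 3.88-fold higher, and chr9:61881496-61881935_R read 7.73 against 6.03, at least 3.25-fold higher. They were followed by chr2:118408095-118415745_R (at least 2.73-fold), chr5:52584616-52595441_R (at least 2.33-fold) and chr19:23068397-23190256_F (at least 2.06-fold), whose nearest gene Klf9, a Krüppel-like factor, differed by 0.97. Found in EpiSC only, chr17:84397891-84412748_F read 7.46 against 6.16, at least 2.46-fold higher, besides the Speer4 interval given above. Of the 5 found in ELA-EpiSC, 4 had further probes, and these reached down to 0.13, −0.10, −0.05 and 0.0009 in chr9:82524061-82526378_R, chr2:118408095-118415745_R, chr5:52584616-52595441_R and chr19:23068397-23190256_F, so each bound describes 1 probe. The 3 probes of chr17:84397891-84412748_F lay between −1.30 and −0.53, and chr9:61881496-61881935_R and the Speer4 interval had 1 probe each. All bounds here hold on the quantile scale. Under another scaling the difference was as small as 1.73 for chr9:82524061-82526378_R, 1.46 for chr9:61881496-61881935_R and 1.19 for chr2:118408095-118415745_R. It was as small as 0.75 for chr19:23068397-23190256_F, 0.94 for chr5:52584616-52595441_R, −0.76 for chr17:84397891-84412748_F and −0.94 for the Speer4 interval chr5:14996031-15035334_F, so these 4 passed 1 or not by the scaling. The next 3, chrX:147610870-147614259_F and 2 neighbours beside Rtp4, chr16:23543837-23560153_F and chr16:23534663-23535172_F, were each at least 1.44-fold higher in EpiSC, while the interferon-induced gene Rtp4 differed by 2.36 in the other direction. With the spike-ins set equal the differences of chrX:147610870-147614259_F and chr16:23543837-23560153_F turned from −0.53 to 0.0072 and 0.0073, so their direction is not settled.

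The 10 brightest intervals differed little. Their values lay between 16.65 and 17.87 on both arrays and their differences between −0.37 and 0.34. As signal depends on the probe as much as on the RNA, no order among them is given. The probes of chr11:22681800-22707775_R (17.80 and 17.87) and chr2:167085700-167117795_R (16.92 and 16.90) are those that carry runs of Rps16, a ribosomal protein gene, as printed above. Rps16 read 18.03 and 18.13 with its own probe. Interval chr17:39982023-39983277_F, with the run of Rn45s, read 16.65 and 16.99, and Rn45s itself 16.40 and 17.04. Interval chr3:87757295-87774970_F read 17.03 and 16.65, a difference of −0.37, whereas Nes, an intermediate filament gene of neural progenitors 11.8 kb away, read 12.26 and 14.37. Among the others were chr17:48068261-48087905_F, chr6:116123643-116124550_F, chr17:17481706-17482457_R, chr14:78924115-78938125_F and chr13:108548345-108679004_R. In chr14:78924115-78938125_F the 5 probes disagreed, from −3.78 to 0.09, with a GC content of 83.3% in the brightest.

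In all, 80 of the 2912 probes had a run of 30 bases in common with a probe of a named transcript, 23 of them with an mRNA probe, and 794 with a probe of any other name. A run of 30 bases was also found in a RefSeq promoter window (250 bases before to 50 after a start, assembly GRCm38.p6) for 67. Leaving out the 80 left 18 and 33 intervals past 1. The median GC content was 45.0% for far and for near intervals and 41.7% for mRNA probes.

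Every chromosome but Y, for which the array had no such interval, held detected far intervals. Chromosome 1 had the most, 208 of 281, followed by chromosome 2 with 205 of 257 and chromosome 8 with 189 of 228, and chromosome 19 the fewest, 64 of 78. The share detected ran from 70.1% on chromosome 3 to 86.6% on chromosome 17. The median difference of intervals with a mean log2 of at least 7.5 lay between −0.14 on chromosome 7 and 0.06 on chromosome 15. Differences past 1 were found on 16 of the 20 chromosomes, with none on chromosomes 3, 9, 10 and 19. Chromosome 2 had 4 in favour of ELA-EpiSC and 5 in favour of EpiSC among 88 intervals of this signal, and chromosome 5 had 3 and 6 among 78. No other chromosome had more intervals of this signal, and overlapping intervals of 1 locus were counted apart. Over all genes and intervals, 4.54% favoured ELA-EpiSC and 4.46% favoured EpiSC by at least 1. On the X chromosome 1 of 41 intervals passed 1, in favour of EpiSC, and its median was −0.12, beside −0.04 for 410 mRNA genes there.

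**Figure D3:**
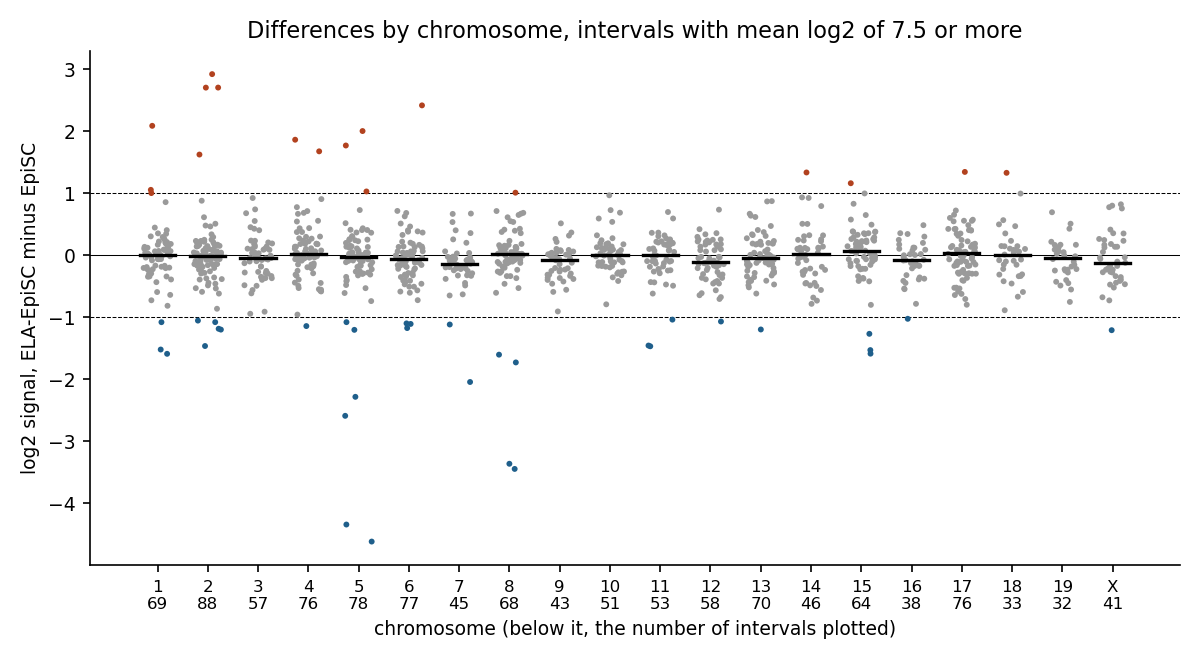
Log2 difference (ELA-EpiSC minus EpiSC) of the 1163 far intervals with a mean log2 of at least 7.5, by chromosome, 1 point per interval, with the number plotted under each chromosome. Bars mark medians, which stay between −0.14 and 0.06, and coloured points are differences past 1, with the most negative on chromosome 5.

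Joining intervals of 1 chromosome whose gap was at most 100 kb gave 567 local clusters of at least 2 different intervals, which held 2057 of the 2912. Clusters were small, 139 of 2 members, and 112 had at least 5. In 244 the members fell into at least 2 stretches that do not overlap, and in the rest they overlapped. A member past 1 was found in 32 clusters and at least 2 such members in 7, and no cluster held both directions. Those 7 were the Speer4, Cbln1, Irx5, Lin54, Bcl2l11 and Snhg18 stretches described above and the zinc finger gene stretch between Gm14305 and Gm14322 on chromosome 2, where both strands of chr2:176784125-177183100 were lower in ELA-EpiSC, from 8.28 to 7.22 (−1.06) on the forward and from 8.68 to 7.48 (−1.20) on the reverse strand. The median of that stretch was −0.21 and turned to 0.32 with the spike-ins set equal, whereas the medians of the other 6 kept their sign under every scaling. All 7 were picked for holding at least 2 members past 1, so a kept sign is no support for their direction. Because members of a cluster often measure 1 transcript, the members past 1 of a cluster are not separate findings.

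The largest cluster, 19 members over 427 kb, lay in the imprinted domain between Begain and Dio3 on chromosome 12, which includes Dlk1 and Rtl1, read from the paternal copy, and the non-coding RNAs Meg3, Rian and Mirg, read from the maternal copy. Of its 13 forward intervals, the strand of the non-coding RNAs, 12 read lower in ELA-EpiSC, with a median of −0.21, and of its 6 reverse intervals 4, with a median of −0.05. Of the 12, 4 were lower by less than the spread between spots, and the intervals overlap in part. Among all forward far intervals detected on both arrays 55.2% read lower, beside 50.4% of all genes and intervals. On the scale of equal spike-ins the median of the whole cluster turned from −0.13 to 0.40, so this direction holds only relative to other genes. The one past 1 was chr12:110894095-110899517_F, which read 11.59 in EpiSC against 10.52 in ELA-EpiSC and thus differed by −1.07. Others of clear signal were chr12:110909258-110913909_F (10.02 and 9.58), chr12:110842154-110883594_F (10.58 and 10.21), chr12:110944403-110988678_F (10.43 and 10.12) and chr12:110973190-110987668_F (10.45 and 10.13), each lower by 0.31 to 0.44. The last 2 overlap Mirg, whose probes disagreed, with differences of −0.77, −0.69 and 0.50, and Meg3 differed by −0.11. Dlk1 differed by −0.54.

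The second cluster held 17 members between Fam92b and Gse1 on chromosome 8, with a median of 0.03, which lay between −0.08 and 0.56 over the scalings. Its member chr8:122807653-122823000_R read 7.52 and 8.53 (1.01) while the forward strand of the same interval read 12.52 and 12.87 (0.35). Members chr8:122994515-122994743_R (13.65 and 14.02) and chr8:122712014-122732520_R (11.51 and 11.53) were bright on both arrays. The third held 14 members between Klf14 and Mkln1 on chromosome 6, from −0.16 to 0.81, and runs over AB041803, named Lncpint in RefSeq, a long non-coding RNA known as a target of p53, whose probes were near the detection limit and differed by 0.16, 0.27 and 0.32. Its brightest members were both strands of chr6:31267612-31293337, with 8.56 and 9.02 on the forward and 9.23 and 9.26 on the reverse strand. The fourth held 13 members between Sox4, a factor of progenitor cells, and Prl5a1 on chromosome 13. There chr13:28477490-28985604_R read 13.56 and 13.21 (−0.34), while the short chr13:28952570-28953234_R read 7.92 and 8.54 (0.61) and Sox4 differed by −0.08. The fifth held 12 members among defensin genes on chromosome 8, between −0.24 and 0.18, of which chr8:19792940-19798868_F read 13.10 and 13.11. Apart from chr8:122807653-122823000_R, none of the members of these 4 clusters passed 1, and with the spike-ins set equal the cluster medians were 0.56, 0.62, 0.64 and 0.57, while the lowest medians over the other scalings were −0.08, −0.08, −0.15 and −0.14, so none of the 4 has a settled direction.

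**Figure D4:**
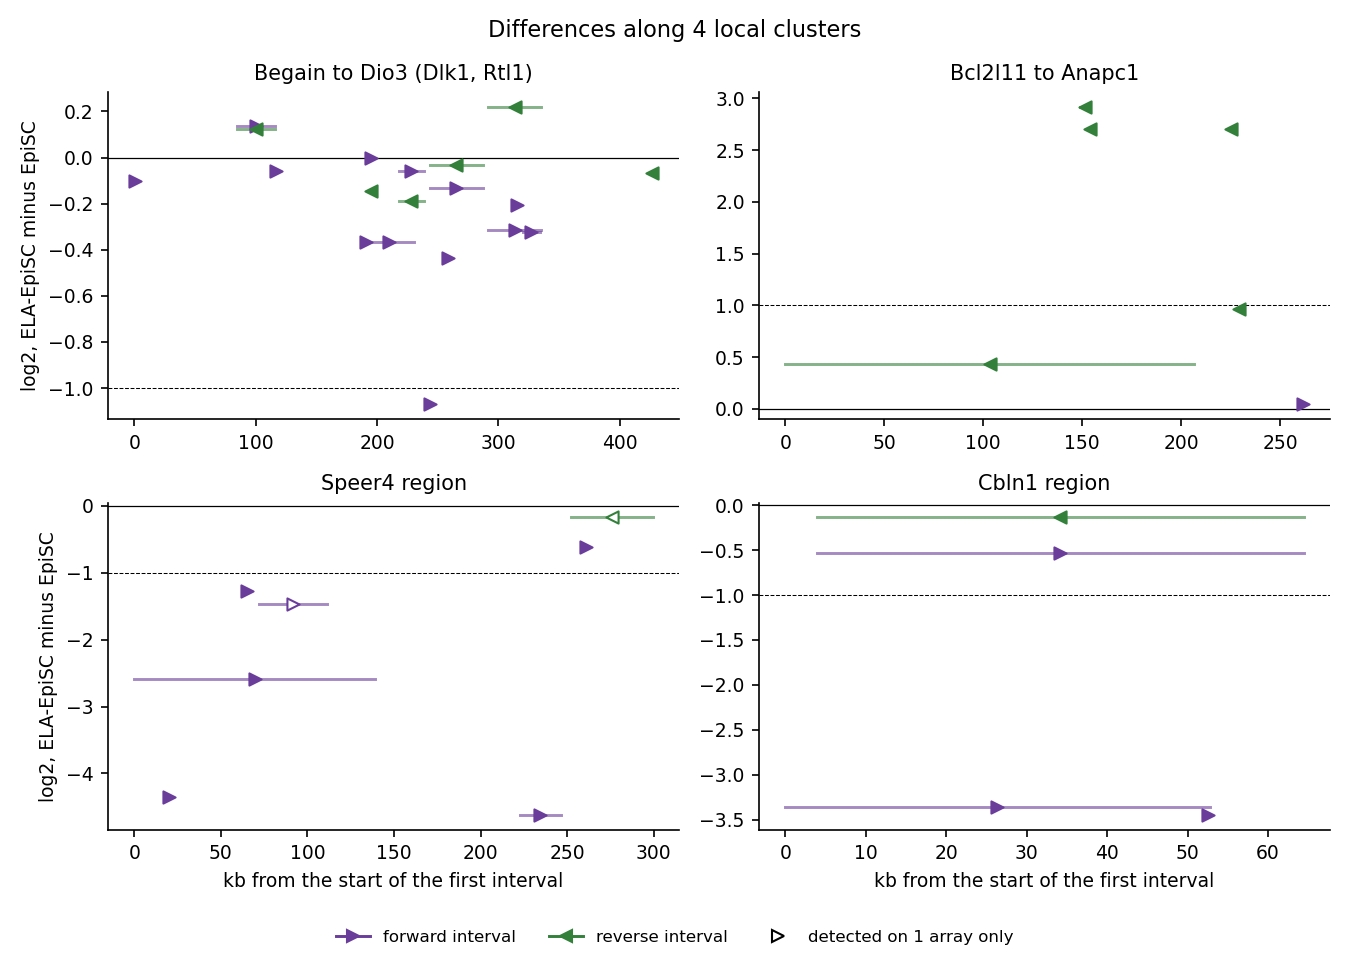
Log2 difference (ELA-EpiSC minus EpiSC) along 4 local clusters, against distance in kb from the start of the first interval of each. Lines span the intervals and triangles point along their strand, and the strongly negative values of the Speer4 and Cbln1 stretches belong to forward intervals while the positive ones between Bcl2l11 and Anapc1 belong to reverse intervals.

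Of 829 intervals probed on both strands, 619 were detected on both, 178 on one and 32 on neither. In 156 both strands had a mean log2 of at least 7.5. Their differences correlated weakly between strands, at r = 0.19 over these 156 intervals, which share the arrays and, for 21, a run of 30 complementary bases. A strand passed 1 in 9 of the 156, and both strands passed 1 in the same direction in 1, chr2:176784125-177183100. Interval chrX:50400250-50410825, 16.3 kb from the placental gene Plac1, read 8.67 and 9.49 (0.82) on the forward and 8.49 and 7.28 (−1.21) on the reverse strand. Interval chr5:35975265-35982561, described above for its forward strand, read 11.65 and 11.50 (−0.16) on the reverse strand. The 5 pairs named next were picked by the gap between the signals of 2 different probes, which gives no order of RNA levels between the strands. They included chr14:77006215-77063293, with 7.46 and 7.77 on the forward and 15.53 and 15.79 on the reverse strand, and chrX:18744367-18853992, with 15.60 and 15.65 on the forward and 7.90 and 8.08 on the reverse strand. Another was chr13:73472571-73483846, with 7.99 and 7.47 on the forward and 14.93 and 14.65 on the reverse strand. The others were chr7:112934153-112943178, with 15.08 and 15.44 on the forward and 8.45 and 8.42 on the reverse strand, and chr14:49314574-49358174, 37.4 kb from Otx2, with 9.24 and 9.30 on the forward and 16.06 and 15.79 on the reverse strand. None of the 5 pairs passed 1 on either strand.

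The difference of a far interval was nearly unrelated to that of the nearest mRNA gene. Over 1067 intervals with a detected nearest gene (709 different genes) r was 0.15, and it was 0.03 with outlier spots kept and 0.02 in the deposited table. By distance r was 0.12 at 10 to 20 kb, 0.15 at 20 to 50 kb, 0.24 at 50 to 100 kb and 0.09 at 100 to 500 kb. Of 47 intervals past 1 with a detected nearest gene, the gene had the same sign in 29 and was itself past 1 in the same direction in 7 and in the other direction in 3. The 7 include both intervals of the Cbln1 and both of the Irx5 locus and the interval near Pou3f1, described above.

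Named transcripts inside an interval followed it more closely, where they ran on the same strand. A detected probe of a named transcript lay inside 686 of the 2912 intervals (499 names). For 143 intervals with a named probe of at least 7.5 on the same strand, r was 0.69. It was 0.63 without the Gm2694 interval and 0.39 over the 129 that differed by less than 1. For 91 with such a probe on the opposite strand r was 0.09. The named probe was past 1 in the same direction in 9 of the 14 intervals past 1 on the same strand and in none of 5 on the opposite strand. For the 61 on the same strand whose probe stood for a RefSeq non-coding RNA, r was 0.83, and of 9 of these past 1, the non-coding RNA was past 1 in the same direction in 8. The points share arrays, overlapping intervals and in part bases, so these are descriptions. On the same strand some pairs of probes, such as those of chr14:115443612-115445950_F and Mir17hg, have all 60 bases in common. No r without such pairs is given.

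For 4 intervals over other named RNAs, chosen after their values were seen, the RNA's own name is given with the values. Interval chr11:3539787-3548811_R over Tug1 read 11.46 and 11.55, and chr14:115443612-115445950_F over Mir17hg, host of the microRNA cluster of that name, read 10.93 and 10.45 (−0.49), beside 11.21 and 10.92 for the Mir17hg probe. The probe of the Mir17hg interval has all 60 bases in common with that Mir17hg probe, so they are not independent measurements. The probe of the Tug1 interval has 54 bases in common with a probe for TUG1. Interval chr19:5771425-5848475_R over NEAT2, also known as Malat1, read 11.15 and 11.20, and its probe has 39 bases in common with a probe for NEAT2. Interval chr15:83181291-83197750_R read 8.65 and 7.38 (−1.27), and 1700001L05Rik inside it 10.697 and 9.28 (−1.42). In the ribosomal RNA unit of chromosome 17 the values went apart, as chr17:39983902-39985688_F read 16.35 and 16.90 (0.54) and Rn18s, the RNA of the small ribosomal subunit, 17.62 and 16.55 (−1.07).

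**Figure D5:**
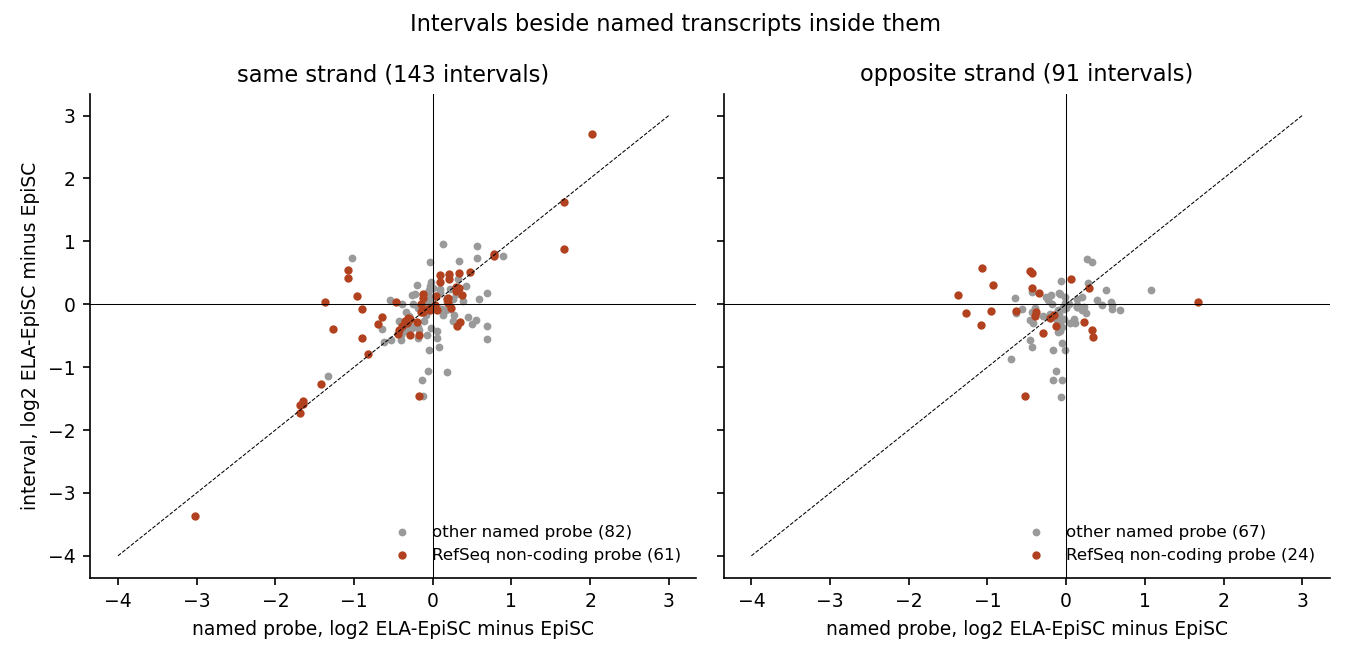
Log2 difference (ELA-EpiSC minus EpiSC) of far intervals against that of the brightest named probe inside them, on the same strand (143 intervals) and on the opposite strand (91 intervals). Red points are RefSeq non-coding RNAs and the dashed line marks equal differences, and of the 9 red same-strand intervals past 1, 8 have a named probe past 1 in the same direction.

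Several probes of 1 interval had correlated differences, but for many intervals past 1 the second probe did not pass 1. Where at least 2 probes of an interval were seen on each array (831 intervals), its 2 brightest gave differences that correlated at r = 0.73. Of 41 past 1 on the brightest, the second had the same sign in 36 and passed 1 in the same direction in 24. Of all 2912 intervals, 1135 rested on 1 detected probe.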

How the data were processed

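Total RNA of 2 samples, 1 per group by the sample titles, was labelled with Cy3 from 50 ng per the labels and hybridized to Agilent SurePrint G3 mouse arrays on 1 slide in 1 scan. The source fields of the labels name other material, an Argonaute immunoprecipitate for EpiSC and undifferentiated cells for both, so the identity of the samples rests on the titles. The authors deposited spot intensity on a linear scale, not normalized, as made by Feature Extraction (version 10.7.3.1 per the file headers, 9.1 per the submitters' processing notes), and a table of log2 values, which by their methods went through background correction and quantile normalization between arrays in limma. Probe coordinates are those of assembly mm9 per the file headers.

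The values used here were computed with limma 3.58.1 in R 4.3.3 from mean spot signal and median local background: normexp correction (offset 50, fitted on all spots), control spots and outlier spots left out (158 and 117), quantile normalization, log2, and the mean over spots of a probe. The offset shrinks differences of dim probes, and quantile normalization hides any shift common to all probes. A probe was detected where at least 0.5 of its spots stood well above background by the scanner software's mark. No spot was saturated. Interval probes were single spots. Of 16181 interval probes, 118 without coordinates were left out, which removed 9 intervals, and 138 intervals had both far and near probes and counted in both sets. Distance was measured to 26644 mRNA probes, not to gene bodies, so an interval can still reach a gene: 33 far intervals hold an mRNA probe on their own strand. Other genes took the value of their brightest detected probe. RefSeq names come from a table of assembly GRCm38.p6.

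With 1 array per group no test was made. The number of arrays limits the precision, and the spread of a difference between repeated spots, 0.10 over 312 probes, covers spot error only. Named were the 10 intervals per direction with the largest differences among those of mean log2 of at least 7.5 detected on both arrays, the 5 per direction with the largest bound among those on 1 array only, the 10 brightest (1 of them is not reported here), the members of the 5 largest clusters and of clusters that hold one of the largest differences, and the 5 strand pairs with the widest gap. The members and lists were chosen with earlier results of these data known. Alternatives covered background correction, scaling, filters, thresholds and the distance rule. Scripts were tested on simulated data.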

Additional observations from a re-analysis of the deposited data

How the results depend on the processing

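Of 95 summary values computed under 26 alternatives, 73 stayed within 1.5 times the reported count, or within 0.10 of a reported median or correlation. The 20 intervals with the largest differences stayed past 1 in the same direction in all 220 values over 11 ways of normalizing. They were picked for their size, and the smallest, −1.59, still read −1.06 with the spike-ins set equal. A shift of that kind could therefore bring none of them under 1, and the result is no independent support. The counts past 1, 18 in favour of ELA-EpiSC and 34 in favour of EpiSC, became 33 and 22 with scaling by the median, 100 and 11 with the spike-ins set equal, 4 and 15 with a minimum mean log2 of 9, 10 and 21 with the mean of an interval's probes, 11 and 18 with a distance of 50 kb, 3 and 5 with a threshold of 2.5, and 67 and 79 with a threshold of 1.5-fold. With no minimum signal 28 were higher in ELA-EpiSC. The median difference was −0.22 with scaling by the 75th percentile after normexp and 0.52 with the spike-ins set equal. The correlation with the nearest gene was 0.031 with outlier spots kept and 0.022 in the deposited table. A distance of 50 kb left 1379 intervals in 254 clusters. Among alternatives chosen after seeing the data, requiring stretches that do not overlap left 244 clusters. The cause of these shifts was not tested beyond what each alternative itself leaves out. No paired analysis was possible because a single array stood for each group. A single array per group, low signal (median mean log2 7.08) and pooled RNA limit every difference to a description of these 2 arrays.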
